A study of Mus musculus with 4 samples.

Results

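Liver cells of S/S mice taken 3 h after an injection of TNF were set against liver cells of S/S mice at baseline, cell type by cell type, to see which genes differed in all types and which in 1 type only. The members of this comparison were cell barcodes, the 10x tags that stand for single cells. A barcode was kept when it had 300 genes or more and a mitochondrial share of UMIs (unique transcript molecules) of 20% or less. Kept barcodes numbered 4366 of 4983 in the S/S baseline library and 5528 of 5848 in the S/S TNF library, so that 9894 of the 19176 barcodes kept in the whole series belonged to the comparison. The TNF animals each received 500 ng TNF intraperitoneally, and the baseline animals were not challenged. All were 2 months old and of the S/S genotype, a symbol the labels do not spell out. Livers were digested and their cells taken through low-speed spins, Ficoll and a sort for live cells that enriched macrophages. Each library pooled the cells of 2 mice, so there was 1 library a group and nothing was tested. The remaining barcodes of the series came from A/A mice at baseline and after TNF, with the same protocol in the labels. The TNF libraries were counted with Cell Ranger 6.1.2 and the baseline libraries with 7.1.0, and treatment and software version cannot be told apart.

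TNF is an inflammatory cytokine that signals through TNFR1, present on most cells, and TNFR2, found mainly on leukocytes and endothelium. TNFR1 activates the kinases that degrade the inhibitor IκBα (Nfkbia) and free the transcription factor NF-κB, which then switches on chemokines, adhesion molecules, survival genes and its own inhibitors within hours. In liver, Kupffer cells are the macrophages of the sinusoids, hepatocytes make the acute phase proteins of plasma, and neutrophils and monocytes are recruited from blood.

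Barcodes were sorted into 16 gates by the UMIs of marker genes, and barcodes that passed no gate (19.4% at baseline, 27.1% after TNF) or more than 1 gate (2.38% and 2.42%) were left out. The 10 types with at least 50 cells in both libraries were compared, of which 8 were immune. In each compared type and library at least 1 marker of its own gate stood among its 10 leading genes, and no marker of another gate did. The gates selected barcodes by these same markers, so this was in part set by the rule and is no independent check of the types. Median depth was 5507 UMIs per cell at baseline and 6504.5 after TNF, with 1917.5 and 1401.5 genes, and 7 barcodes occurred in both libraries. Ribosomal RNA of Rn18s-rs5 took 5.98% and 13.7% of UMIs. Values below are CPM, the UMIs of a gene over all UMIs of its cell type in that library, scaled to the usual common total. A log2 ratio is TNF over baseline after adding 1 CPM. Brackets hold 95% intervals from the exact binomial distribution, and these take in counting error alone. A gene counted as measured in a type with at least 20 UMIs in the pair of libraries.

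Neutrophils took a larger share of kept cells after TNF and lymphocytes a smaller one. Neutrophils went from 100 cells, 2.29% [1.87 to 2.78], to 992 cells, 17.9% [16.9 to 19.0]. B cells went from 929 to 175 cells, which is 21.3% [20.1 to 22.5] and 3.17% [2.72 to 3.66]. T cells went from 934 to 282 cells, 21.4% [20.2 to 22.6] and 5.10% [4.54 to 5.71]. These intervals come from the cells of 1 library each and do not measure the spread between mice. NK or ILC1 cells, the cytotoxic innate lymphocytes, had 154 and 77 cells (3.53% and 1.39%). Kupffer cells had 194 and 120 cells (4.44% and 2.17%). Both were smaller shares after TNF, as were plasmacytoid dendritic cells, the main makers of type I interferon, with 200 and 148 cells (4.58% and 2.68%). Monocytes or macrophages had 218 and 356 cells (4.99% and 6.44%), a direction that turned with a gate of doubled marker minimum (2.11% and 0.904%), and erythroid cells 287 and 667 cells (6.57% and 12.1%). Hepatocytes, with 241 and 334 cells (5.52% and 6.04%), and conventional dendritic cells, the antigen-presenting type, with 102 and 94 cells (2.34% and 1.70%), had overlapping intervals. Shares depend on the digestion, the sort and the filter as well as on the tissue, and with the stricter filter of 500 genes and 10% mitochondrial UMIs neutrophils took 2.91% and 19.7%. Endothelial cells (28 and 561) and mature dendritic cells (7 and 63) were too few at baseline to compare, and stellate cells, cholangiocytes, plasma cells and basophils or mast cells had 19 cells or fewer in both.

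**Figure D1:**
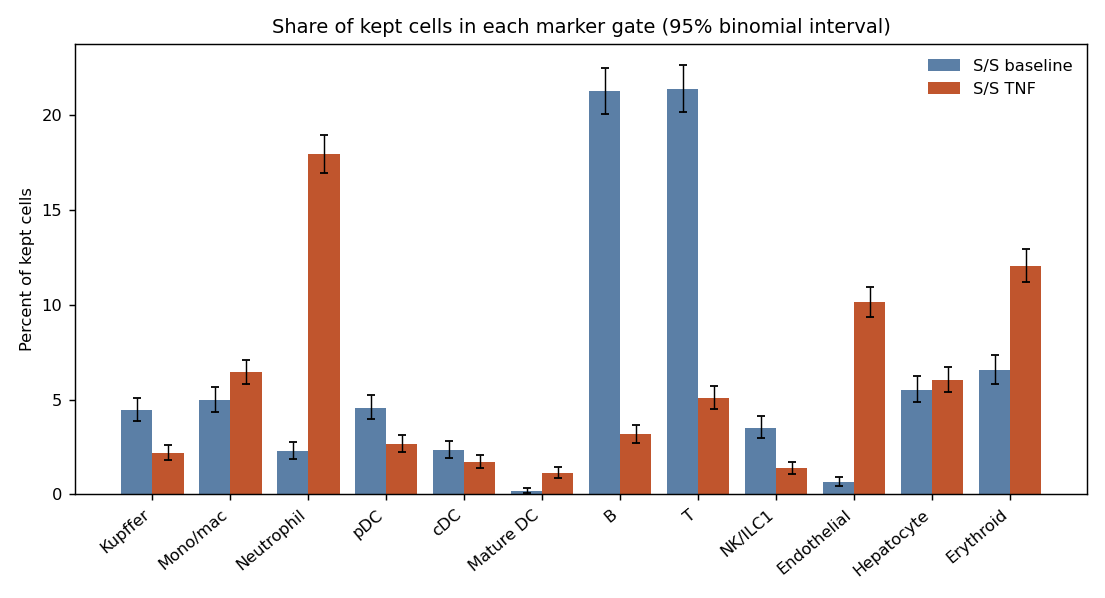
Percent of kept cells (vertical axis) in each marker gate (horizontal axis) in the S/S baseline and S/S TNF libraries, with exact binomial 95% intervals as error bars and 1 library a bar. Neutrophils stood at 2.29% and 17.9%, B cells at 21.3% and 3.17%, and T cells at 21.4% and 5.10%.

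Within some gates genes of subsets and stages differed between the 2 libraries; these genes were picked after the data were seen. Among neutrophils the granule genes of young cells were lower after TNF, Ngp at 7847 and 2063 CPM and Camp at 7351 and 1697 CPM, while Cxcr2, the chemokine receptor of mature cells, was at 1228 and 1593 CPM. Among conventional dendritic cells the subset markers went in different directions. Of the type 1 subset, Xcr1 was at 39.4 and 168 CPM, Naaa at 293 and 856 CPM and Clec9a at 134 and 122 CPM. Of the type 2 subset, Clec10a was at 326 and 97.3 CPM, Cd209a at 867 and 390.1 CPM and Mgl2 at 112 and 256 CPM. Camp, Xcr1, Clec9a and Cd209a were themselves markers of these gates, so their levels depend in part on the gates. Among B cells Ighm, the IgM heavy chain, was at 1768 and 6038 CPM, while Ighd, the IgD heavy chain, was at 721 and 520 CPM. After TNF Ighm was also among the 10 leading genes of plasma cells. The part of such mixtures in the values below was not tested.

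The share of genes that differed was unequal between types. In Kupffer cells 34.7% of 4816 measured genes were at least 2-fold higher and 14.8% at least 2-fold lower after TNF, and in hepatocytes 15.7% and 5.95% of 4087. In the other types more genes were lower than higher, up to 12.5% and 37.9% of 8221 in neutrophils. The split depended on the scaling in 3 types: with median-of-ratios size factors it was 22.3% higher and 21.1% lower in neutrophils, 15.2% and 8.95% in erythroid cells and 24.2% and 24.9% in Kupffer cells. Relative to genes of like intron length it was 21.2% and 17.6% in neutrophils and 15.4% and 8.67% in erythroid cells. In erythroid cells it also turned with the stricter filter of genes and mitochondrial UMIs (16.7% and 11.6%) and with an estimate of free RNA, released by broken cells, subtracted (19.8% and 15.6%). The median log2 ratio of all measured genes was 0.44 in Kupffer cells, -0.19 in monocytes or macrophages, -0.64 in neutrophils, -0.17 in plasmacytoid and -0.37 in conventional dendritic cells. It was -0.22 in B cells, -0.21 in T cells, -0.22 in NK or ILC1 cells, 0.13 in hepatocytes and -0.36 in erythroid cells. Ratios below are to be read against these medians. They moved with intron length: in B cells genes with over 100 kb of annotated intron had a median of -1.52 and genes with under 1 kb 0.10, and the gap between these classes ran from -2.07 in neutrophils to -0.31 in erythroid cells. In Kupffer cells the gap had the other sign, 1.57, and in hepatocytes it was 0.48. Whether introns were counted is not given in the sources used here.

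Of 2489 genes measured in all 10 types, 14 (0.562%) were at least 2-fold higher in every type and 6 (0.241%) at least 2-fold lower in every type. Only 2 of the 14 were left once an estimate of free RNA was subtracted. Most genes differed in few types: 1560 were 2-fold higher in none, 491 in 1 type, 197 in 2 and 79 in 3, while 19 were higher in 9 types. The 14 were Marcksl1, Mt2, Mt1, Clec4e, Cxcl2, Eif3j2, Mvp, Dusp1, Ets2, Gm43305, Socs3, Ehd1, Fabp4 and Lilr4b, in the order of the smallest ratio over types. In the A/A libraries 8 of the 14 were also at least 2-fold higher in every type measured there. There the share of all genes 2-fold higher and lower was 21.1% and 13.6% in Kupffer cells, 15.7% and 23.9% in monocytes or macrophages, 17.6% and 30.5% in neutrophils, 6.29% and 16.4% in plasmacytoid and 9.94% and 19.9% in conventional dendritic cells. It was 8.57% and 24.8% in B cells, 5.93% and 16% in T cells, 12.9% and 19.6% in NK or ILC1 cells, 22.3% and 17.2% in endothelial cells and 20.4% and 6.17% in hepatocytes. Over the 8 immune types alone, 20 of 4017 genes (0.498%) were higher in every type and 14 (0.349%) lower, and the added higher genes included Tnfaip2, Tnf, Lcn2 and C3. After TNF Lcn2 ran from 20.6 to 8698 CPM over these types and C3 from 17.1 to 746 CPM. The part of free RNA in the added genes was not tested.

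**Figure D2:**
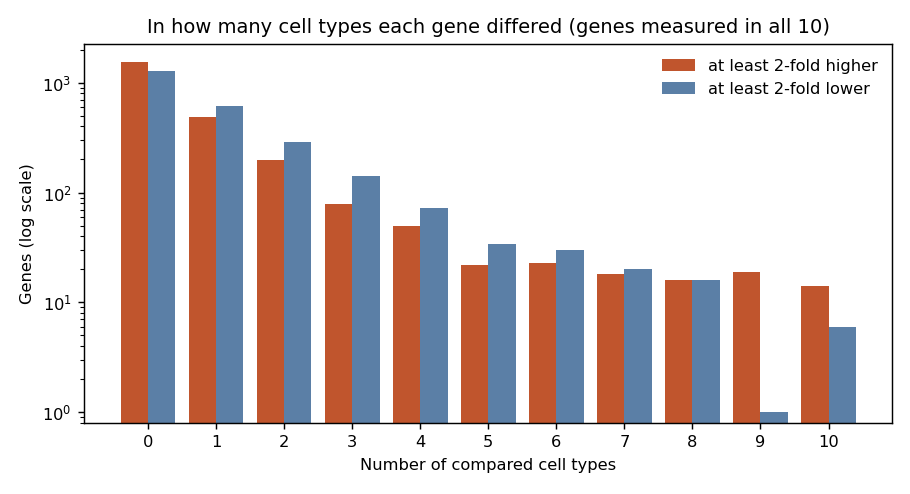
Number of genes (vertical axis, log scale) by the number of compared cell types (horizontal axis) in which they were at least 2-fold higher or lower after TNF, among the 2489 genes measured in all 10. The 14 genes higher in every type and the 6 lower in every type stand at the right end.

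Marcksl1, a membrane-bound regulator of actin, had the largest smallest ratio, 3.57 in B cells. It went from 432 to 7168 CPM in neutrophils, from 109 to 2426 in Kupffer cells, from 81.8 to 1719 in monocytes or macrophages and from 84.4 to 1254 in conventional dendritic cells. In the other types Marcksl1 reached 82.9 CPM in hepatocytes to 270 CPM in B cells, from 2.86 to 21.9 CPM at baseline. Its level after TNF therefore differed far more between types than its ratio did.

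The metallothioneins Mt1 and Mt2, small proteins that bind zinc and copper, followed. Mt1 was highest in hepatocytes at both times, at 2717 and 21091 CPM, and Mt2 stood there at 523 and 5641 CPM. In Kupffer cells Mt1 went from 228 to 3606 CPM and Mt2 from 10.9 to 1599 CPM. There 1 barcode held 40.0% of the Mt1 UMIs and 39.9% of the Mt2 UMIs after TNF. Hepatocytes had the smallest ratios of the 10 types for both genes, 2.96 [2.86 to 3.05] for Mt1 and 3.43 [3.21 to 3.65] for Mt2, and the highest levels in both libraries. Mt1 in plasmacytoid dendritic cells went from 4.61 to 658 CPM, a log2 ratio of 6.87. The RefSeq promoter of Mt2 (GRCm38.p6, 250 bases before to 50 after the start) is shown since this gene had the largest median ratio of the 14, 6.08. Capitals mark the 4 matches to the core of the metal response element, the site of the zinc sensor MTF1, searched on both strands as TGCGCNC or TGCACNC, where N is any base.
Mt2, chr8:94172368-94172667, plus strand: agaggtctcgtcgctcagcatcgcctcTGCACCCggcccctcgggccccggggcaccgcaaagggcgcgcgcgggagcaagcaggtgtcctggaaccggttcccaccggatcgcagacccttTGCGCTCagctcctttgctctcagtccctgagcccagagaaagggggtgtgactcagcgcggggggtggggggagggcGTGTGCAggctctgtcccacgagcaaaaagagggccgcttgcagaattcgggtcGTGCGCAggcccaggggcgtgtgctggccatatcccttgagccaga
A match to that core was found in 25.7% of the 32851 promoters of the same length, so a match is common and is a description only.

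Cxcl2, a ligand of the neutrophil receptor CXCR2, was highest in neutrophils themselves (265 CPM before TNF, 8279 CPM after). It went from 5.44 to 1279 CPM in Kupffer cells and from 56.3 to 1226 CPM in monocytes or macrophages. In hepatocytes it had 0 UMIs at baseline and 466 CPM after TNF, at least 54.3-fold higher against a floor of 3 UMIs. B cells had the smallest ratio, 1.79, at 32.5 and 115 CPM. The Cxcl2 promoter is printed with the κB motif in capitals, searched on both strands as GGG, 3 bases of any kind and TTCC, because the gene was 2-fold higher in every type. The run holds 3 matches.
Cxcl2, chr5:90903649-90903948, plus strand: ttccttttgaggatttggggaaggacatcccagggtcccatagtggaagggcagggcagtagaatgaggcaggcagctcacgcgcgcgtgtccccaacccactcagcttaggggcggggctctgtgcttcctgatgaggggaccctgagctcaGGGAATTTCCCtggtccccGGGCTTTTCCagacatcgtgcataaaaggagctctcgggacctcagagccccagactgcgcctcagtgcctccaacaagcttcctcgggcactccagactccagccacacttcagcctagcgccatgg
The κB motif occurred in 5.56% of all promoters and in 3 of the 11 genes of the 14 that had a promoter entry.

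Clec4e, the receptor Mincle for cell wall and dead-cell ligands, was highest in neutrophils (468 and 3193 CPM) and monocytes or macrophages (95.4 and 1603 CPM). Dusp1, a phosphatase that shuts off MAP kinases, was at 1407 and 3148 CPM in neutrophils, its smallest ratio (1.16), and at 54.4 and 898 CPM in Kupffer cells, its largest (4.02). Socs3, the feedback inhibitor of IL-6 and G-CSF signalling, was at 205 and 938 CPM in neutrophils and at 2.72 and 136 CPM in Kupffer cells. In Kupffer cells 1 barcode held 52.9% of the Socs3 UMIs after TNF. These 3 genes were again highest in neutrophils after TNF. Ehd1, a protein of endocytic recycling, was at 183 and 1282 CPM in neutrophils, and Ets2, a transcription factor, at 179 and 399 CPM. Lilr4b, an inhibitory receptor with near-identical neighbours, was at 269 and 1076 CPM in neutrophils, and its value is uncertain where reads could be split between copies. Mvp, the major vault protein, had ratios between 1.20 and 2.38. Fabp4, a fatty acid carrier, had ratios between 1.04 and 4.66, and its highest level in a compared type after TNF was 314 CPM, beside 4690 and 3193 CPM in endothelial cells.

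Eif3j2, a copy of a translation initiation factor subunit that has a close paralog, stood apart by its evenness. After TNF it lay between 11 CPM in neutrophils and 79.9 CPM in monocytes or macrophages, from 0 to 10.9 CPM at baseline. Its lowest level was 13.8% of its highest, while for the other 13 genes this value was at most 5.94%. Gm43305, a gene model with no known role, was highest in plasmacytoid dendritic cells, at 94.4 and 538 CPM.

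Free RNA, released by broken cells and captured in all droplets, was estimated from the markers of unrelated types at 2.72% of UMIs in monocytes or macrophages to 13.8% in B cells after TNF. The free level of a gene was this share of its CPM over all kept barcodes of the library. Empty droplets were not measured, so the free level is an approximation. Only Eif3j2 and Gm43305 lay at least 3 times above the free level in all 10 types. Marcksl1 did so in 5 types, Mt1 and Mt2 in 7 and Cxcl2 in 5. In B cells the observed level was 0.92 times the free level for Marcksl1, 1.01 times for Mt2, 1.10 times for Mt1 and 0.47 times for Cxcl2. When the free share was subtracted, 2 of the 14 genes, Eif3j2 and Gm43305, kept a 2-fold difference in every type. In neutrophils each of these had only 2 UMIs at baseline. Their ratios there before subtraction were 1.36 [-0.30 to 3.09] for Eif3j2, an interval that takes in 0, and 2.06 [0.41 to 3.77] for Gm43305. With each cell thinned to 1000 UMIs 456 genes were measured in all 10 types and none was higher in all. In neutrophils, monocytes or macrophages and Kupffer cells all 14 lay between 5.14 times (Gm43305 in neutrophils) and 138 times (Cxcl2 in neutrophils) the free level. No limit on the share of UMIs in 1 barcode was set for these 14 genes. After TNF, 1 barcode of the NK or ILC1 cells held 73.7% of the Cxcl2, 50% of the Marcksl1 and 48.6% of the Mt1 UMIs. In hepatocytes 1 barcode held 58.7% of the Clec4e UMIs. In neutrophils this share was at most 10.6%, for Mt1.

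Of the 6 genes lower in every type, 5 were at least 4-fold lower in each, and these were Cmss1, Il31ra, Cdk8, Gphn and Camk1d. Cmss1 lay between 2842 and 13692 CPM at baseline and between 0.49 and 19.7 CPM after TNF. Il31ra lay between 162 and 1122 CPM at baseline and had at most 0.95 CPM after TNF. Cdk8 lay between 740 and 4073 CPM at baseline and at 23.4 CPM or lower after TNF. Gphn and Camk1d behaved alike, with highest levels of 28.1 and 60.9 CPM after TNF. All 6 were also at least 2-fold lower in every type of the A/A pair, which differs in software version in the same way. Annotated introns of these 5 ran from 61813 bp for Cdk8 to 454645 bp for Gphn, and a treatment effect and a counting effect cannot be told apart.

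**Figure D3:**
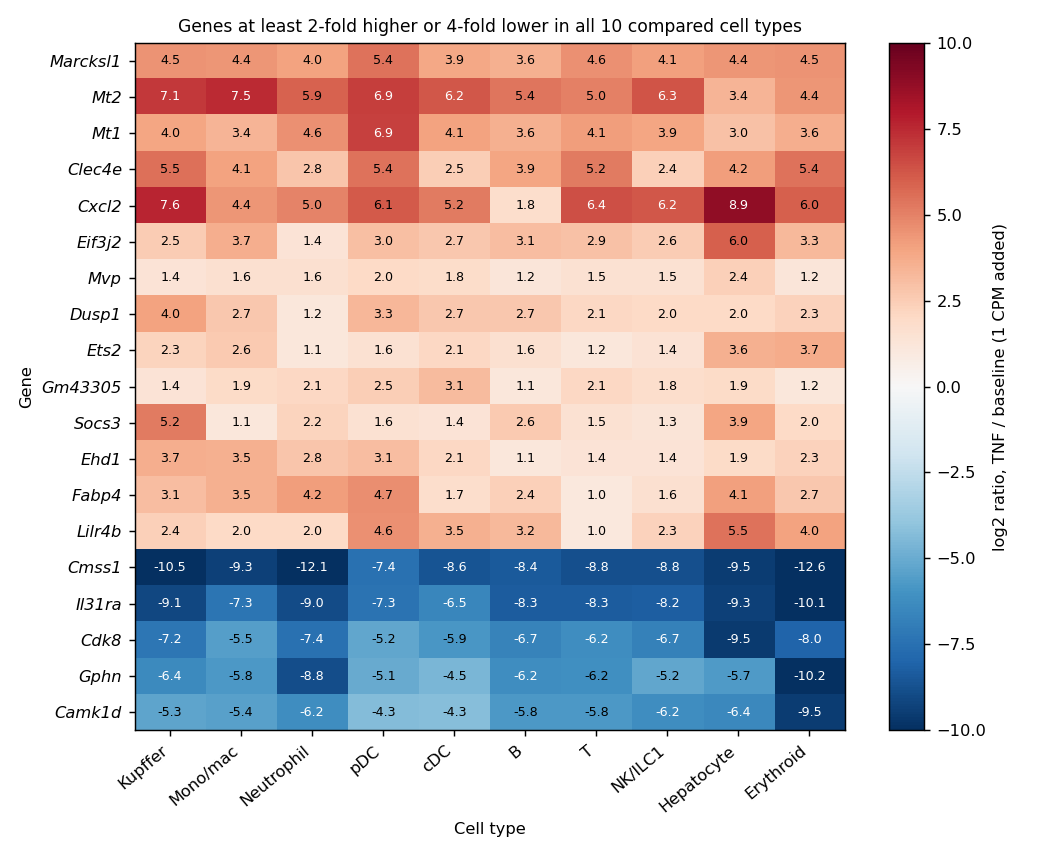
Log2 ratios (colour and printed values, TNF over baseline with 1 CPM added) of the 14 genes at least 2-fold higher and the 5 genes at least 4-fold lower (vertical axis) in all 10 compared cell types (horizontal axis), with colour limited to 10. Marcksl1 kept between 3.57 and 5.41 in every type, while Cxcl2 ran from 1.79 in B cells to 8.87 in hepatocytes.

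The NF-κB and TNF response list holds 34 genes: receptors and adaptors, NF-κB subunits, inhibitors and early targets. It had a positive median in each of the 10 types. In hepatocytes the median was 3.20 with 21 of 22 measured members at least 2-fold higher (all genes 15.7%). It was 3.04 with members at 0 UMIs placed at their bound. In Kupffer cells it was 2.94 with 30 of 30 higher (all genes 34.7%) and in neutrophils 2.45 with 26 of 34 (2.14 with bounds, all genes 12.5%). In erythroid cells it was 1.97 with 25 of 30, beside 10.4% of all 5623 genes there. In monocytes or macrophages 25 of 34 were higher (median 1.53) beside 11.7% of all 11159 genes. The other types had lower medians: 1.16 in plasmacytoid dendritic cells with 18 of 33 higher (all genes 5.84%), 1.06 in NK or ILC1 cells with 19 of 32 (4.36%), 0.94 in conventional dendritic cells with 15 of 33 (6.62%) and 0.86 in T cells with 14 of 33 (3.92%). B cells came last, with a median of 0.29, 10 of 34 higher and 3 lower (all genes 6.06% and 21.8%), and the B cell median was -0.89 with free RNA, described above, subtracted. Over all types 203 of 315 gene and type values were higher and 5 lower. By type, 3.92% to 34.7% of all genes were higher and 5.95% to 37.9% lower. The order of types follows their own medians and was not tested.

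Nfkbia, the inhibitor IκBα and a direct NF-κB target, was at least 2-fold higher in 9 of the 10 types. It went from 377 to 4406 CPM in neutrophils (3.54 [3.35 to 3.75]), from 288 to 1326 in monocytes or macrophages and from 198 to 1012 in Kupffer cells. T cells went from 122 to 576 CPM (2.23 [2.12 to 2.34]) and NK or ILC1 cells from 161 to 743 CPM. B cells, at 241 and 298 CPM (0.30 [0.16 to 0.44]), were the exception, although their baseline level was above that of T cells. Its promoter follows, with the single κB match in capitals.
Nfkbia, chr12:55492598-55492897, minus strand: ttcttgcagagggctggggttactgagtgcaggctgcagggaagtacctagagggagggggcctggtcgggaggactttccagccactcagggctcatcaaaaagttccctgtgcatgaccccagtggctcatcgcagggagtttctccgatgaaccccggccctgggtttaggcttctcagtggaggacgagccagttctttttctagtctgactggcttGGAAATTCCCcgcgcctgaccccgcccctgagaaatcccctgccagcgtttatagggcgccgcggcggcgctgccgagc
Of the 27 list genes with a promoter entry, 8 held the κB motif, in 32.4% of 34 promoters, beside 5.56% of all promoters.

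Tnfaip3 (A20), an enzyme that ends NF-κB signalling, went from 0 UMIs to 391 CPM in Kupffer cells, at least 48.0-fold higher. It was at 65.9 and 634 CPM in neutrophils, 16.7 and 251 CPM in monocytes or macrophages and 117 and 186 CPM in T cells, its smallest ratio (0.67). Tnfaip2, a TNF-induced protein, was highest in neutrophils (690 and 2137 CPM) and Kupffer cells (158 and 1203 CPM). Bcl2a1b, a survival gene of the BCL2 family with near-identical copies, went from 7.55 to 116 CPM in plasmacytoid dendritic cells and from 74.9 to 837 CPM in monocytes or macrophages. Cd40, the receptor for T cell help, differed in sign between antigen-presenting types: it went from 28.1 to 235 CPM in conventional dendritic cells and from 71.8 to 33.6 CPM in B cells.

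Icam1, the endothelial and leukocyte ligand of the integrin LFA-1, went from 23.8 to 746 CPM in neutrophils (4.91) and from 13.6 to 467 CPM in Kupffer cells. Icam1 was 2-fold higher in 9 of 10 types, B cells (0.96) being the exception. Sod2, the mitochondrial superoxide dismutase, went from 45.7 to 1668 CPM in neutrophils and from 135 to 2054 CPM in monocytes or macrophages. In NK or ILC1 cells Sod2 stood at 88.1 and 98.3 CPM. Irf1, a transcription factor induced by interferon-γ and NF-κB, was higher in hepatocytes (5.72 and 66.6 CPM) and Kupffer cells (40.8 and 199 CPM) but lower in monocytes or macrophages (74.9 and 28.2 CPM, -1.38 [-1.64 to -1.11]). Tnf itself was at 3.46 and 183 CPM in monocytes or macrophages, 8.15 and 148 CPM in Kupffer cells and 97.0 and 495 CPM in neutrophils.

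**Figure D4:**
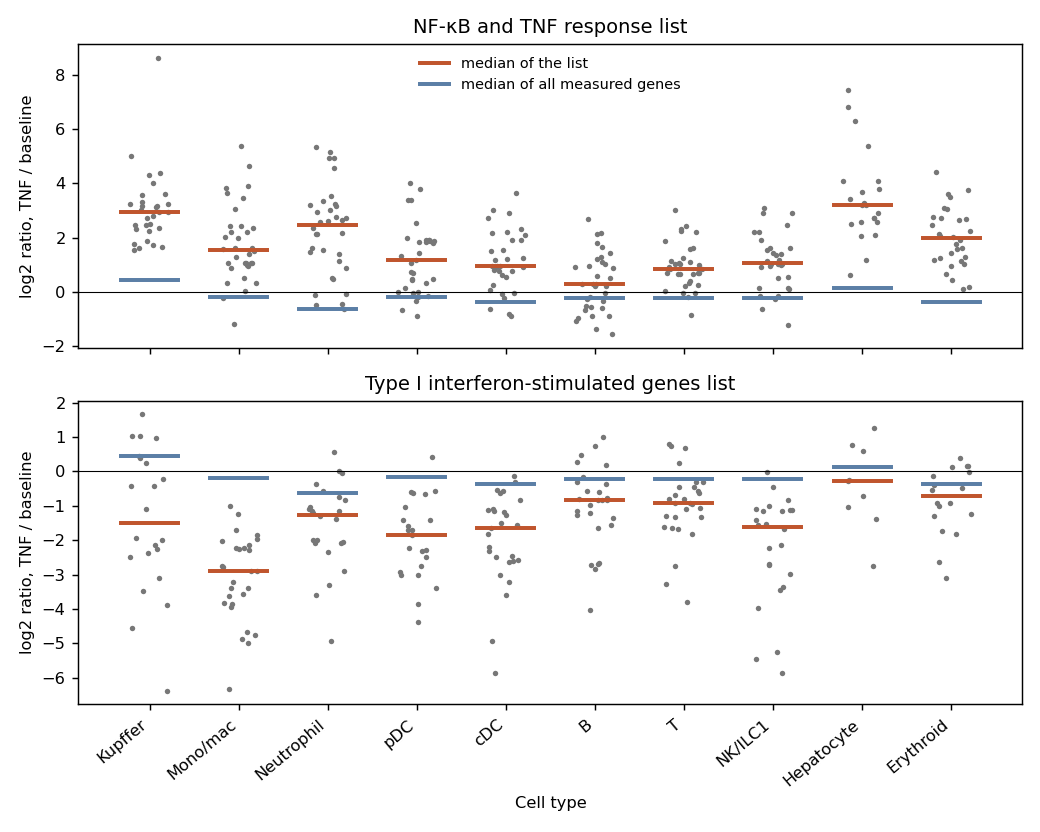
Log2 ratios (vertical axis) of the measured members (grey points) of the NF-κB and TNF response list and of the type I interferon-stimulated genes list in each compared cell type (horizontal axis), with the median of the list in orange and of all measured genes in blue. The first list lies above the median of all genes in every type, from 0.29 in B cells to 3.20 in hepatocytes, and the second below it in every type, down to -2.90 in monocytes or macrophages.

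Chemokines differed by type more than the NF-κB list. The 26-gene chemokine list had a median of 4.99 in hepatocytes (7 of 11 higher, 3 lower, all genes 15.7% and 5.95%). It was 2.86 there with members at 0 placed at their bound. Medians were 2.65 in plasmacytoid dendritic cells (13 of 14 higher, all genes 5.84%) and 2.62 in Kupffer cells (8 of 14 higher, all genes 34.7%). They were 2.27 in B cells (10 of 12 higher, all genes 6.06%) and 2.25 in neutrophils (13 of 16 higher, all genes 12.5%, and 1.45 with bounds). Conventional dendritic cells had 2.18 (9 of 14 higher, all genes 6.62%) and T cells 1.88 (12 of 16 higher, all genes 3.92%). Erythroid cells (1.38, 8 of 13 higher, all genes 10.4%) and monocytes or macrophages (0.47, 9 of 19 higher and 3 lower, all genes 11.7% and 22.8%) followed. In NK or ILC1 cells the median was -1.16, with 1 of 7 higher and 4 lower, beside 20.1% of all genes lower. Ccl4 and Ccl3, inflammatory chemokines, showed the split. Ccl4 went from 29.9 to 455 CPM in Kupffer cells (3.88 [3.04 to 4.86]) and from 43.2 to 217 CPM in plasmacytoid dendritic cells, but from 560 to 117 CPM in NK or ILC1 cells (-2.24 [-2.58 to -1.92]) and from 357 to 138 CPM in T cells (-1.36 [-1.51 to -1.22]). Ccl3 was at 209 and 687 CPM in neutrophils, 19.5 and 143 CPM in monocytes or macrophages and 85.9 and 68.3 CPM in T cells. No chemokine list median was computed with free RNA subtracted. Of the members, Cxcl2 after TNF lay at 0.47 times the free level in B cells and 0.31 times in conventional dendritic cells. It lay at 1.26 times in plasmacytoid dendritic cells, 1.43 in T cells and 1.53 in NK or ILC1 cells. In the other types it ran from 3.65 times in erythroid cells to 138 times in neutrophils.

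Ccl2, the main monocyte attractant, went from 5.72 to 213 CPM in hepatocytes (4.99) and from 13.6 to 111 CPM in Kupffer cells. In monocytes or macrophages, the type with most Ccl2 at baseline, it went from 140 to 72.4 CPM (-0.94 [-1.12 to -0.76]). Cxcl1, a second CXCR2 ligand, had 0 UMIs in Kupffer cells at baseline and 170 CPM after TNF, at least 20.8-fold higher. In hepatocytes Cxcl1 went from 8.58 to 278 CPM. Conventional dendritic cells carried Ccl17 and Ccl22, ligands of CCR4 on T cells: Ccl17 went from 8.13 to 1523 CPM and Ccl22 from 5.0 to 840 CPM. Mature dendritic cells, not compared, had 1763 and 2205 CPM of these genes after TNF.

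Cytokine genes were higher in Kupffer cells for 7 of 10 measured members (median 3.56, and 2.82 with bounds), beside 34.7% of all genes there. In hepatocytes 3 of 4 measured members were higher (median 3.23), beside 15.7% of all genes. Il6, the inducer of the hepatic acute phase, had 0 UMIs in Kupffer cells at baseline and 218 CPM after TNF, at least 26.7-fold higher, and went from 0.94 to 19.9 CPM in monocytes or macrophages. No other compared type measured it. Il12b, the p40 subunit of IL-12 and IL-23, had 62.5 CPM in Kupffer cells after TNF and 0 UMIs before, at least 7.67-fold higher. Il23a, the second subunit of IL-23, had 63.8 CPM in neutrophils and 40.1 CPM in Kupffer cells after TNF. Il1b, the fever cytokine of myeloid cells, was at 3570 and 7079 CPM in neutrophils (0.99) and at 181 and 682 CPM in monocytes or macrophages. Il1rn, which blocks the IL-1 receptor, was at 267 and 1454 CPM in neutrophils and was at least 2-fold higher in all 9 types that measured it.

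Type I interferon-stimulated genes, which encode antiviral proteins and are induced through the factor ISGF3, were lower after TNF. Their 28-gene list had a negative median in each of the 10 types, below the median of all genes each time. In monocytes or macrophages 28 of 28 members were at least 2-fold lower (median -2.90), beside 22.8% of all genes. The list was lower for 18 of 23 members in plasmacytoid dendritic cells (median -1.86, all genes 18.9%) and 21 of 27 in conventional dendritic cells (-1.64, 26.6%). It was lower for 21 of 24 in NK or ILC1 cells (-1.63, 20.1%) and 17 of 24 in neutrophils (-1.26, 37.9%). In Kupffer cells 12 of 22 were lower and 3 higher (-1.52), beside 14.8% and 34.7% of all genes. T cells (12 of 28 lower, -0.91, all genes 19.8%) and B cells (11 of 27, -0.84, all genes 21.8%) followed. Erythroid cells had 7 of 18 lower (-0.72, all genes 20.1%), and a median of 0.055 with cells thinned to 1000 UMIs. Hepatocytes had 3 of 9 lower (-0.28, all genes 5.95%). Over all types 150 of 230 values were lower and 5 higher, beside 5.95% to 37.9% of all genes lower and 3.92% to 34.7% higher by type.

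Ifi44, a cytoplasmic antiviral protein, went from 237 to 1.96 CPM in monocytes or macrophages, from 168 to 1.90 CPM in conventional dendritic cells and from 146 to 6.06 CPM in plasmacytoid dendritic cells. Oasl2, of the oligoadenylate synthetase family, went from 461 to 14.3 CPM in neutrophils and from 159 to 4.05 CPM in monocytes or macrophages. Ifit3, which binds foreign RNA, went from 120 to 3.14 CPM in monocytes or macrophages and from 139 to 35.3 CPM in Kupffer cells. Usp18, the protease that removes ISG15, went from 54.5 to 1.05 CPM in monocytes or macrophages. Irf7, the factor that amplifies interferon production, was at 383 and 33.7 CPM in Kupffer cells (-3.47 [-4.18 to -2.82]) and at 209 and 69.1 CPM in plasmacytoid dendritic cells. Its ratio was negative in all 10 types, from -0.40 in erythroid cells to -3.47 in Kupffer cells.

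Isg15, a ubiquitin-like modifier, did not follow the list in every type. It went from 359 to 53.0 CPM in monocytes or macrophages (-2.74 [-2.90 to -2.58]) and from 102 to 11.7 CPM in plasmacytoid dendritic cells (-3.02). In neutrophils it stood at 201 and 202 CPM, in B cells at 65.4 and 78.5 CPM, and in erythroid cells, where it was highest, at 2701 and 2466 CPM. The Isg15 promoter is printed because the gene split the types. Capitals mark the bases of 3 matches to the interferon-stimulated response element, the ISGF3 site, searched on both strands as GAAA, 2 bases of any kind and GAAA.
Isg15, chr4:156200769-156201068, minus strand: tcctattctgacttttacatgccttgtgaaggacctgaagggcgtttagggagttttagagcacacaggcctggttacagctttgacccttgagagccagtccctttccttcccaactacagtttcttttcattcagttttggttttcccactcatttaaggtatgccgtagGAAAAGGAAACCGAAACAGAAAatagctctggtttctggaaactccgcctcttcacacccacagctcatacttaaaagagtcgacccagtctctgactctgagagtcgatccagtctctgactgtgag
This element was found in 12 of the 21 list genes with a promoter entry, in 54.2% of 24 promoters, beside 3.44% of all promoters.

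The list of guanylate-binding proteins, interferon-γ-inducible GTPases of cell-autonomous defence, which also holds the factor Irf1, was lower in monocytes or macrophages (9 of 12 lower, 1 higher, median -1.34) and higher in hepatocytes (7 of 8 higher, median 2.85, and 2.00 with bounds), beside 22.8% of all genes lower in the first and 15.7% higher in the second. Gbp2 was at 66.7 and 37.1 CPM in monocytes or macrophages, 82.3 and 328 CPM in neutrophils and 2.86 and 59.2 CPM in hepatocytes. Gbp5, an inflammasome co-factor, went from 5.49 to 261 CPM in neutrophils and from 16.3 to 237 CPM in Kupffer cells. MHC class II genes present antigen to CD4 T cells. In monocytes or macrophages 9 of 10 were at least 2-fold lower (median -1.43, all genes 22.8%), with H2-DMa at 480 and 129 CPM and H2-Eb1 at 2620 and 846 CPM. In conventional dendritic cells and B cells none of 10 was 2-fold different, with H2-Eb1 at 7555 and 8994 CPM and at 2329 and 1872 CPM. Of all genes, 6.62% were higher and 26.6% lower in conventional dendritic cells, and 6.06% and 21.8% in B cells. NK or ILC1 cells had 4 of 7 lower (median -1.06, all genes 20.1%) and erythroid cells 3 of 8 lower (median -0.55, all genes 20.1%). Hepatocytes had 1 of 5 lower (median -0.22, all genes 5.95%). Neutrophils had 3 of 9 higher and 1 lower (median 0.70, and 0.60 with bounds), beside 12.5% and 37.9% of all genes. Monocytes or macrophages also held more Ly6c2 (801 and 1017 CPM) and Chil3 (744 and 1164 CPM), genes of fresh blood monocytes, after TNF. They held less C1qa (257 and 138 CPM), a resident macrophage gene. Ly6c2 was a marker of this gate, so its level depends in part on the gate. The MHC class I list, which includes the immunoproteasome, had medians from -0.25 in monocytes or macrophages to 0.81 in neutrophils. In the first 5 of 16 were lower beside 22.8% of all genes, and in neutrophils 7 of 16 were higher beside 12.5%. B2m, the light chain, went from 1107 to 2501 CPM in neutrophils.

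Acute phase genes divided by type as well. Saa3, the serum amyloid A of macrophages and epithelia, went from 362 to 7698 CPM in monocytes or macrophages, from 21.7 to 3021 CPM in Kupffer cells and from 37.2 to 1582 CPM in hepatocytes. Saa1, the major hepatocyte form, was lower in hepatocytes after TNF, at 11235 and 5103 CPM (-1.14 [-1.20 to -1.07]). In hepatocytes all 17 listed genes were measured, with a median of 0.01, 3 higher and 2 lower, beside 15.7% and 5.95% of all genes. Over all types 85 of 120 values were higher, beside 3.92% (T cells) to 34.7% (Kupffer cells) of all genes by type. Medians were 2.61 in neutrophils (1.62 with bounds), 2.40 in plasmacytoid dendritic cells, 2.07 in Kupffer cells, 1.93 in conventional dendritic cells and 1.89 in monocytes or macrophages (1.74 with bounds), beside -0.64, -0.17, 0.44, -0.37 and -0.19 for all genes. Hepatocyte markers, summed over 10 genes, were also higher after TNF in these types: 417 and 740.5 CPM in neutrophils, 55.4 and 191 CPM in plasmacytoid and 114 and 244 CPM in conventional dendritic cells, 443 and 898 CPM in Kupffer cells and 46.3 and 195 CPM in monocytes or macrophages. They were at 168 and 343 CPM in B cells, 101 and 181 CPM in T cells, 96.9 and 132 CPM in NK or ILC1 cells and 311 and 369 CPM in erythroid cells. Their part in the acute phase values of these types was not tested. In hepatocytes Crp went from 42.9 to 244 CPM, Lcn2, a siderophore-binding protein, was at 1247 and 1442 CPM and Serpina3n at 68.6 and 91.8 CPM. In neutrophils Lcn2 was at 3467 and 8698 CPM.

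Metallothionein and NRF2 target genes, the zinc-binding and oxidative stress defence, had their highest medians in Kupffer cells (12 of 17 higher, all genes 34.7%, median 1.65) and monocytes or macrophages (10 of 18 higher, all genes 11.7%, median 1.17). Slc7a11, the cystine importer, went from 229 to 1437 CPM in neutrophils and from 23.6 to 362 CPM in monocytes or macrophages. Hmox1, which breaks down heme, was highest in Kupffer cells, at 2384 and 7462 CPM, went from 14.3 to 592 CPM in hepatocytes and from 548 to 1745 CPM in monocytes or macrophages, and was lower in NK or ILC1 cells, at 151 and 60.1 CPM (-1.31 [-1.81 to -0.84]). The iron and heme list had medians between -0.63 and 0.52. Slc11a1, a phagosomal metal exporter, was at 95.1 and 261 CPM in Kupffer cells, and Hamp, the iron hormone hepcidin, at 1479 and 1887 CPM in hepatocytes. Immediate early genes, transcription factors switched on within minutes, had their highest median in Kupffer cells, 3.04 (2.98 with bounds), with 17 of 18 higher beside 34.7% of all genes, and their lowest, 0.07, in conventional dendritic cells. Nr4a1, an orphan nuclear receptor of early activation, went from 0 UMIs to 64.1 CPM in Kupffer cells, from 44.7 to 238 CPM in monocytes or macrophages and from 28.8 to 11.9 CPM in conventional dendritic cells. The heat-shock list had medians between -0.30 and 0.94. Hspa1b, an inducible HSP70 gene with a near-identical copy, had 0 UMIs in NK or ILC1 cells at baseline and 90.1 CPM after TNF, at least 40.9-fold higher, against 2.83 and 4.58 CPM in monocytes or macrophages.

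Adhesion genes had a median of 1.98 in Kupffer cells, where 9 of 10 were higher and 1 lower, beside 34.7% and 14.8% of all genes. Vcam1, the ligand of the integrin VLA-4, went from 193 to 2815 CPM there. The cell death list also had its highest median there (10 of 17 higher, median 1.22, beside 0.44 for all genes), with the inflammasome sensor Nlrp3 at 8.15 and 204 CPM. The death receptor Fas was higher in 8 of 10 types, at 113 and 584 CPM in neutrophils and 21.7 and 198 CPM in monocytes or macrophages. The list of prostaglandin and nitric oxide enzymes had medians from -0.42 to 3.45 (1.92 with bounds) over the 9 types with at least 3 members measured. Acod1, the itaconate enzyme, was at 194 and 1133 CPM in neutrophils and had 141 CPM in Kupffer cells after TNF and 0 UMIs before. Ptgs2, the inducible cyclooxygenase, was at 3.15 and 63.9 CPM in monocytes or macrophages and 340 and 452 CPM in neutrophils. Alox5, which starts leukotriene synthesis, was at 258 and 18.2 CPM in neutrophils, the only compared type that measured it.

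Metabolic and housekeeping lists moved less. The glycolysis list had medians between 0.27 and 0.99, with the glucose transporter Slc2a1 at 73.2 and 282 CPM in neutrophils while Slc2a3, a second transporter, was lower there at 346 and 163 CPM. The constitutive proteasome, a set of 18 subunits of steady expression, had 3 of 180 values higher and 4 lower, and Psma6 had ratios between -0.21 and 0.93. Of all genes, 3.92% to 34.7% were higher and 5.95% to 37.9% lower by type. The stress and unfolded protein list had medians between -0.35 and 0.91. Within it, Asns, a target of ATF4, was higher in all 6 types that measured it, and the chaperone Sdf2l1, at 97.3 and 19.2 CPM in hepatocytes, was lower in 6 of 10. Cell cycle genes were higher in B cells (11 of 18, median 1.21, all genes 6.06%) and monocytes or macrophages (11 of 18, median 1.26, all genes 11.7%). They were lower in neutrophils (12 of 16, median -1.41, all genes 37.9%) and Kupffer cells (7 of 10 lower and 1 higher, median -2.25, all genes 14.8% lower). Mki67, the proliferation antigen, was at 19.7 and 91.3 CPM in B cells and 13.5 and 128 CPM in monocytes or macrophages.

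Genes of 1 type only were those at least 4-fold different in that type and under 1.5-fold in the same direction in every other type that measured them, of which there had to be at least 3. In the library with the higher level, that type also had to hold no less of the gene than the other kept cells. The difference between types was not tested. By this rule 192 genes were higher and 58 lower in 1 type. Kupffer cells held 152 of the higher ones, 3.21% of 4736 genes considered there, and none of the lower. Their counts became 68 higher and 32 lower with size factors, and 11 and 4 with cells thinned to 1000 UMIs. Neutrophils held 14 of the higher (0.186% of 7533) and 38 of the lower (0.504%). Hepatocytes had 11 higher (0.303%), conventional dendritic cells 8 higher (0.0889%) and 10 lower (0.111%), and each other type had 4 or fewer either way. Of the genes considered, these were 0.02% higher and 0.04% lower in monocytes or macrophages, 0.0105% and 0.0105% in plasmacytoid dendritic cells, 0.0301% and 0.01% in B cells, 0.0126% and 0.0252% in NK or ILC1 cells and 0.0373% lower in erythroid cells, with none in T cells.

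Oncostatin M, Osm, a cytokine of the IL-6 family, went from 29.3 to 235 CPM in neutrophils (2.97 [2.28 to 3.74]) and stood at 22 and 33.1 CPM in monocytes or macrophages. It was detected in 399 of the 992 neutrophils. Il18bp, the soluble inhibitor of IL-18, went from 7.32 to 62.7 CPM in neutrophils, while Kupffer cells had more of it at both times, 296 and 383 CPM. Sh2b2, an adaptor of receptor kinases, went from 12.8 to 86.6 CPM. Lower in neutrophils alone were Sik1, a salt-inducible kinase (161 and 10.2 CPM), and Efcab14 (161 and 16.7 CPM), a gene of little known function.

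In hepatocytes Ripk2, the kinase of the bacterial sensors NOD1 and NOD2, had 0 UMIs at baseline and 115 after TNF (170 CPM), at least 19.8-fold higher. Those UMIs came from 67 of 334 hepatocyte barcodes, and 7 other types measured Ripk2 with ratios from -1.54 in B cells to 0.50 in neutrophils. Hepatocyte barcodes were shallow, with a median of 1193 and 1135 UMIs.

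In conventional dendritic cells Ly75, the endocytic receptor DEC-205, went from 11.3 to 118 CPM (3.28 [2.63 to 3.98]) and Galnt7, a glycosyltransferase, from 41.9 to 175 CPM. Pid1, an adaptor protein, was lower, at 674 and 36.5 CPM, and so was I830077J02Rik, at 81.3 and 11.9 CPM. The subset markers given above also differed between the libraries, in both directions within each subset, and their part in these values was not tested. Monocytes or macrophages had a lower Gbp3, at 55.4 and 11.9 CPM (-2.13 [-2.49 to -1.77]), and B cells a lower Sh3pxd2a, a scaffold protein with 192635 bp of intron, at 63.1 and 14.3 CPM. Set against genes of like intron length the ratio of Sh3pxd2a was -0.48.

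The named Kupffer cell genes were Nsf, a factor of vesicle fusion (24.5 and 156 CPM), Aplp2, an amyloid precursor relative (24.5 and 151 CPM), and Sgpl1, the sphingosine phosphate lyase (29.9 and 176 CPM). Their annotated introns span 123929, 56384 and 42919 bp. Other measures of Kupffer barcodes moved as well: the nuclear RNAs Malat1 went from 603 to 9134 CPM, Neat1 from 8.15 to 252 CPM and Kcnq1ot1 from 0 UMIs to 162 CPM, while in B cells Malat1 was at 23793 and 18882 CPM. Median depth was 1613 and 2838.5 UMIs and 631 and 927 genes. Markers of hepatocytes summed to 443 and 898 CPM in Kupffer barcodes (9 and 10 of 10 with a UMI, Cps1 at 0 at baseline) and those of endothelial cells to 158 and 333 CPM (7 and 9 of 9, Kdr and Bmp2 at 0 at baseline). Markers of T cells summed to 84.3 and 1.60 CPM (8 and 1 of 8, Cd3d, Cd3e, Cd3g, Trac, Trbc1, Cd28 and Cd6 at 0 after TNF). Their part in the result was not tested. Set against genes of like intron length, 38 genes were higher and 18 lower in Kupffer cells only.

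**Figure D5:**
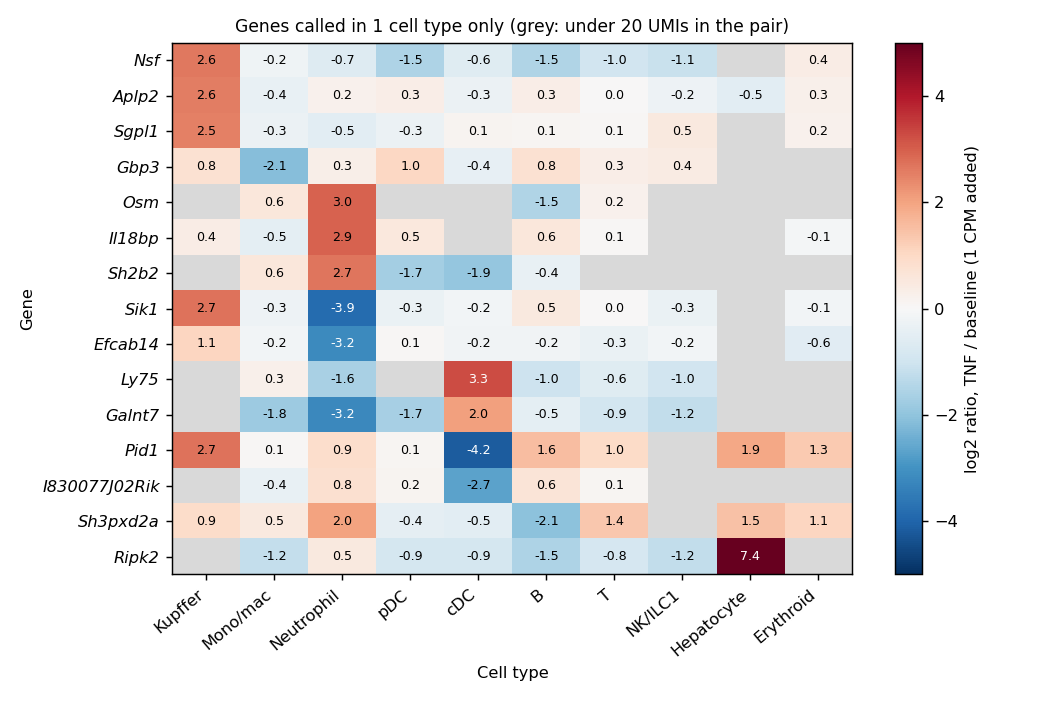
Log2 ratios (colour and printed values, colour limited to 5) of the genes named by size as different in 1 cell type only (vertical axis) in the 10 compared types (horizontal axis), grey where the pair held under 20 UMIs. Osm stood at 2.97 in neutrophils, Ripk2 at 7.42 in hepatocytes and Pid1 at -4.17 in conventional dendritic cells.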

How the data were processed

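The authors deposited filtered UMI count matrices, raw counts per gene and barcode, from 10x 3' v3.1 libraries of mouse liver cells. They were made with Cell Ranger 7.1.0 for the baseline and 6.1.2 for the TNF libraries, per the file headers, and with the mm39 build, per the submitters' processing notes. Whether introns were counted is not given in the sources used here. The sources used here name no removal of free RNA and no doublet call. No doublet caller was run here, but barcodes in 2 gates were left out. The genes, lists and comparison were chosen with earlier results of these data known, and gate minimums were set after the marker counts had been seen.

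Counts were summed per marker gate and library with Python 3.11.15, numpy 2.4.6, pandas 2.3.3, scipy 1.17.1 (exact binomial intervals, 95%) and matplotlib 3.10.9. The scripts were tested on simulated data. With 1 library a group no p-value was computed. A type needed 50 cells in both libraries, a gene 20 UMIs in the pair, and a ratio had 1 CPM added. A gene with 0 UMIs in 1 library was set at a floor of 3 UMIs for its bound, over the cell type in that library. Named genes were chosen by size: up to 15 higher and 8 lower in all types by their smallest ratio, up to 3 higher and 2 lower per type (at least 100 UMIs, 50 CPM in the higher library, under 25% of UMIs in 1 barcode), up to 4 a list by their median ratio, and a fixed set that includes Nfkbia, Icam1, Tnf and Isg15. Of the genes lower in all types, 1 is not reported here, and the 4-fold limit used to show the others was set after the data were seen. The 20 lists hold 361 genes, of which 360 were found: NF-κB, chemokines, cytokines, type I interferon, guanylate-binding, immediate early, heat shock, metallothionein and NRF2, MHC class I, MHC class II, adhesion, cell death, acute phase, stress, glycolysis, cell cycle, iron, proteasome, nuclear RNAs and prostaglandin enzymes. Intron lengths and promoters came from GRCm38 annotation and RefSeq (GRCm38.p6) and share only gene names with the counts. Of 12 alternatives (scaling, pseudocount, filters, gates, free RNA, depth, fold, intron length), the intron one was chosen after seeing the data, as were all those for genes lower in 1 type and for the interferon list.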

Additional observations from a re-analysis of the deposited data

Results flagged for a closer look

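The genes Ccl4, H2-Eb1, Hmox1 and Saa1 differed in direction between cell types by more than 2-fold each way, with neither interval reaching 0. The difference between types was not tested in any of them. Ccl4, an inflammatory chemokine, had a log2 ratio of 3.88 in Kupffer cells and -2.24 in NK or ILC1 cells. H2-Eb1, an MHC class II chain, stood at 1.07 in neutrophils and -1.63 in monocytes or macrophages. Hmox1, the heme oxygenase, stood at 5.28 in hepatocytes and -1.31 in NK or ILC1 cells. Saa1, an acute phase protein, stood at 2.92 in neutrophils and -1.52 in erythroid cells. Hepatocyte markers summed to 417 and 740 CPM in neutrophils and to 311 and 369 CPM in erythroid cells at baseline and after TNF. The part of free RNA in the values of these genes was not tested. Endothelial cells entered no comparison, with 28 baseline cells, and yet held adhesion genes after TNF: Sele (E-selectin) at 111 CPM beside 0 UMIs at baseline, Selp (P-selectin) at 2206 CPM beside 202 CPM, and Vcam1 at 1710 CPM beside 217 CPM.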

How the results depend on the processing

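No paired analysis was possible because each group held 1 library. Of 48 counts 28 stayed within 1.5 times of the reported value, and of 220 list medians 201, of 1106 values of named genes 884 and of 60 shares 30 kept within their intervals; the cause of the others was not tested. The 14 genes higher in every type became 6 with a pseudocount of 10 CPM, 41 with 1 UMI and 6 with 50 UMIs required, 8 with gate minimums doubled, 2 with free RNA subtracted, 5 at 3-fold and 0 with cells thinned to 1000 UMIs, where only 456 genes were measured in all types. The 6 lower became 51 with 1 UMI required. The 192 higher in 1 type became 111 with median-of-ratios size factors, 84 with the larger pseudocount, 515 with 1 UMI, 88 with 50 UMIs, 30 thinned, 91 at 3-fold (6-fold in the type itself) and 76 relative to genes of like intron length. The 58 lower in 1 type became 21, 120, 37, 26 and 17 with the larger pseudocount, 1 UMI, 50 UMIs, thinning and 3-fold. With free RNA subtracted the lowest ratio over cell types turned to -3.02 for Clec4e, -5.10 for Cxcl2 and -2.72 for Dusp1. This lowest ratio turned to -0.25 for Ehd1, -2.73 for Fabp4 and -4.34 for Marcksl1. The NF-κB and TNF response median moved to -0.89 in B cells and 2.96 in erythroid cells with free RNA subtracted, to -0.22 in B cells, 2.17 in conventional dendritic cells and 1.87 in monocytes or macrophages when thinned (1.87 there also with gates doubled), to 3.09 in neutrophils and 1.07 in T cells with size factors (1.07 also without ribosomal and mitochondrial genes) and to 2.95 in neutrophils relative to intron length. The interferon median moved to -2.52 (gates doubled), -2.41 (free RNA) and -0.61 (thinned) in conventional dendritic cells, when thinned to 0.055 in erythroid cells, -1.30 in hepatocytes and -2.88 in Kupffer cells, with the larger pseudocount to -2.28 in monocytes or macrophages and -1.28 in plasmacytoid dendritic cells, and with size factors to -0.62 in neutrophils. With 500 genes and 10% mitochondrial UMIs the shares at baseline and after TNF were 26.1% and 4.10% for B cells, 26.6% and 6.94% for T cells, 4.40% and 1.91% for NK or ILC1 cells, 2.91% and 19.7% for neutrophils, 6.08% and 8.57% for monocytes or macrophages, 3.38% and 1.76% for Kupffer cells, 5.62% and 3.70% for plasmacytoid and 2.88% and 2.31% for conventional dendritic cells, 3.55% and 4.12% for hepatocytes and 2.94% and 4.50% for erythroid cells. With gates doubled they were 2.11% and 0.904% for monocytes or macrophages, 1.97% and 1.14% for Kupffer cells, 1.56% and 0.597% for conventional dendritic cells, 3.16% and 3.06% for hepatocytes, and at baseline 1.86% for neutrophils and 20.2% for T cells.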

Other observations

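Endothelial cells and mature dendritic cells were too few at baseline to compare, and their levels are given side by side. In endothelial cells (28 and 561) Mt1 was at 628 and 13261 CPM, Icam1 at 44.9 and 1034 CPM, and Ccl2 had 0 UMIs at baseline and 618 CPM after TNF. In mature dendritic cells (7 and 63) Ccl22 was at 63.6 and 2205 CPM and Il12b at 84.9 and 375 CPM.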
